A study of Mus musculus with 6 samples.

Results

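The genes described here are 9 homeobox genes of craniofacial mesenchyme: Alx1, Alx4, Prrx1, Prrx2, Msx1, Msx2, Shox2, Pitx1 and Barx1. They were named as a set with earlier results of the comparison below known, and each was read from the array row that carries its symbol alone, so that 9 of 19938 measured genes are members. Among several such rows of a gene, the row was to be chosen by its highest mean log2 value over the 6 samples, but each of the 9 had only 1 row. Expression was measured on Affymetrix arrays in mouse embryonic stem cells of the W4/129S6 background whose Nkx2-1 locus carries a knock-in reporter for green fluorescent protein (GFP). Nkx2-1 is a homeodomain factor gene of lung, thyroid and ventral forebrain. All cells were differentiated for 14 days and sorted by the reporter. The Nkx2-1 high group holds 3 samples of GFP-positive cells (genotype label Nkx2-1GFP+), and the Nkx2-1 low group holds 3 samples of GFP-negative cells (Nkx2-1GFP-). The labels' protocols call the 3 samples biological replicates. Both groups carry the same reporter allele by the series' design, and no source used here says how many clones were used. The comparison asks what sets the reporter-positive cells, which the study's title calls progenitors of lung and thyroid, apart from the reporter-negative cells. For these 9 genes it gives the expression of a regulatory set of facial mesenchyme in each fraction.

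Homeobox genes encode transcription factors that bind DNA through a homeodomain. In the embryonic head, neural crest cells leave the neural tube and fill the frontonasal region and the pharyngeal arches, where they form mesenchyme that gives rise to bone, cartilage, tooth pulp and connective tissue. Signals from the covering epithelium, bone morphogenetic proteins among them, switch on different homeobox genes in different regions of this mesenchyme. The Alx genes act in the frontonasal region. Prrx1 and Prrx2 act broadly in facial and limb mesenchyme, and Msx1 and Msx2 in mesenchyme of teeth, palate and skull. Pitx1, Barx1 and Shox2 act in parts of the jaws and palate, and each is also known elsewhere, Pitx1 in the hindlimb, Barx1 in stomach mesenchyme and Shox2 in limb and the cardiac pacemaker.

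Promoter sequences are shown for Prrx1 and Prrx2, paralogs that were both lower in Nkx2-1 high, and for Msx1 and Msx2, paralogs that differed in their change. Of the 9 genes, 6 matched the RefSeq promoter table (build GRCm38.p6). Each sequence is the 250 bases before a RefSeq start site, read 5′ to 3′ on the gene's strand. The windows of Prrx1 and Prrx2 lie inside the annotated span of the gene. Capitals mark matches on either strand to TAATTA, a homeodomain core site, to CCAAT, the CCAAT box, or to CTCAAG, the core of the Nkx2 family's site.
Prrx1 (chr1:163313651-163313900, minus strand): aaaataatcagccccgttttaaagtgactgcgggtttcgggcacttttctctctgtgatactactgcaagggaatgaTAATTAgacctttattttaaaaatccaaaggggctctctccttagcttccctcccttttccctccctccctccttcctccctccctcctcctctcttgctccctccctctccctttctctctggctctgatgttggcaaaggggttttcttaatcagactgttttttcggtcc
Prrx2 (chr2:30845117-30845366, plus strand): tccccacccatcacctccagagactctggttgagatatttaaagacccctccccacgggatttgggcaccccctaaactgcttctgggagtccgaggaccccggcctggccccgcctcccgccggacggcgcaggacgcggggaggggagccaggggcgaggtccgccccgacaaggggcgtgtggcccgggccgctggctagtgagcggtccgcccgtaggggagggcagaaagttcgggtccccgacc
Msx1 (chr5:37824586-37824835, minus strand): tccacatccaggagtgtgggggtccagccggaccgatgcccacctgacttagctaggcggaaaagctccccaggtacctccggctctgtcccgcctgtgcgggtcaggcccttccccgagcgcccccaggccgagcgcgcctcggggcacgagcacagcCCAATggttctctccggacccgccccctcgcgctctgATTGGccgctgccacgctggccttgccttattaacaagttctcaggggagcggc
Msx2 (chr13:53472781-53473030, minus strand): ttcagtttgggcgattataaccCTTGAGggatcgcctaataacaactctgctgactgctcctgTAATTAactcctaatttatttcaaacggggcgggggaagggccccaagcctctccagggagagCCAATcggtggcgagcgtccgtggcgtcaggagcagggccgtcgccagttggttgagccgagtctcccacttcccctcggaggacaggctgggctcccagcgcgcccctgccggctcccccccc
The homeodomain core TAATTA was found in the windows of Prrx1 and Msx2, and 4.84% of all 32851 RefSeq windows of this length hold it. CCAAT matched 2 times in Msx1 and 1 time in Msx2, against 33.8% of all windows with a match. CTCAAG matched 1 time, in Msx2, and 13.3% of all windows hold it. TATAAA, the TATA box, was in the window of Shox2 alone among the 6, and in 12.4% of all windows. No overlap between motifs occurred in the printed windows. G and C bases made up 47.6% of the Prrx1 window and 70.0% of the Prrx2 window. They made up 68.0% of the Msx1 window and 61.6% of the Msx2 window, where the median of all windows was 52.4%. These matches describe letters only.

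Of the 9 genes, 7 fell in Nkx2-1 high and 0 rose (limma, Benjamini-Hochberg adjusted p under 0.05 over all 19938 genes), where 3.09% of all genes were lower and 2.90% higher. Alx1 was 4.28-fold, Prrx1 3.74-fold and Msx1 3.02-fold lower. Alx4, Prrx2 and Barx1 fell by less, Shox2 fell at levels not above background, and Msx2 and Pitx1 did not pass the test. The median log2 difference of the 9 was -1.09, beside -0.01 over all genes. Differences are Nkx2-1 high minus Nkx2-1 low throughout, with the standard error (SE) from limma. Because the genes were chosen with this contrast known, the counts and p-values are a description of it and give it no independent support. All 3 Nkx2-1 high samples lay below all 3 Nkx2-1 low samples for 7 of the 9 genes, and the same held for 13.5% of all genes. A test per gene without limma's shared variance (eBayes) left 4 residual degrees of freedom, and under it 0 of the 9 passed the adjusted threshold, with adjusted p from 0.0526 to 0.111 for the 7 genes and 7 at an unadjusted p under 0.05.

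**Figure D1:**
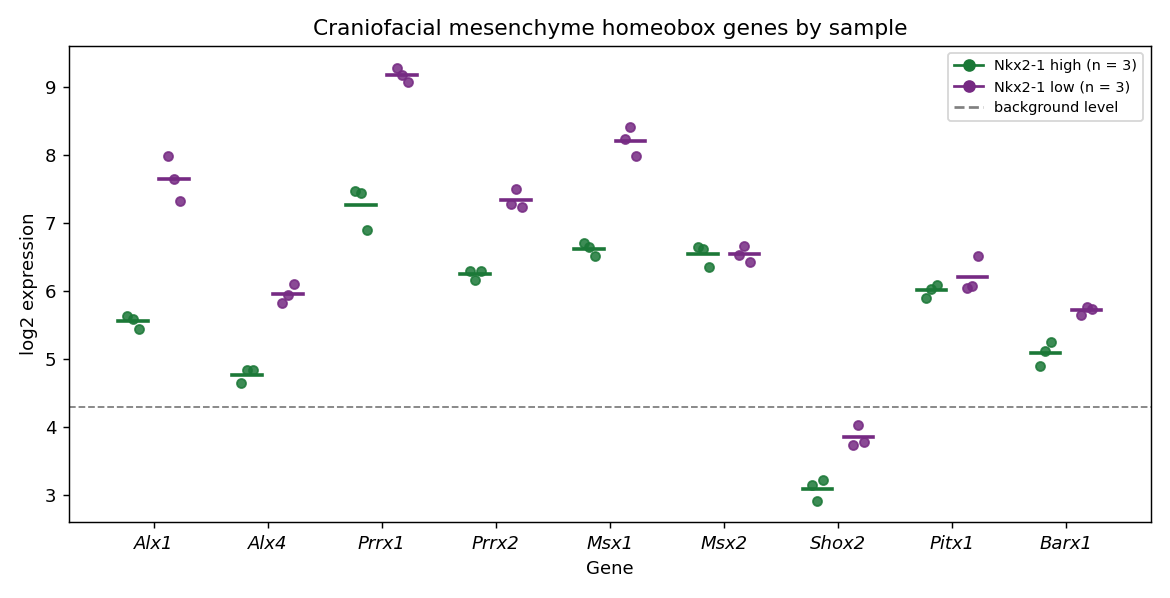
Log2 expression (vertical axis) of the 9 homeobox genes (horizontal axis) in the 3 Nkx2-1 high samples (green, left) and the 3 Nkx2-1 low samples (purple, right), each point a sample and each bar the group mean, with the background level dashed at 4.30. The green points lie below the purple points for 7 genes and overlap them for Msx2 and Pitx1, and both groups of Shox2 lie under the dashed line.

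The background level is a log2 value of 4.30, the 95th percentile of 1210 rows of olfactory and vomeronasal receptors, genes not expected in these cells. Both group means lay above it for 8 of the 9 genes, so the falls took place above this cutoff in all but Shox2. The cutoff is lower than the median log2 value of every array. Of these 8 genes, Alx4 (mean 4.77) and Barx1 (5.09) stood closest to it in Nkx2-1 high. In bulk samples such as these, fewer cells that express a gene and less RNA per cell cannot be told apart. Nkx2-1 itself, on which the cells were sorted, averaged 7.72 ± 0.08 in Nkx2-1 high and 5.33 ± 0.09 in Nkx2-1 low (log2, SD, n = 3 each), so the groups follow their labels. Over all genes, 1196 differed between the groups, of which 579 rose and 617 fell. The number of arrays limits the precision, and the median log2 values of the 6 arrays ran from 4.98 to 5.06. The sources used here give no scan dates, so array batches were not tested.

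Alx1 encodes a paired-class homeodomain factor needed for the frontonasal skeleton and the cranial vault. Its log2 expression was 5.63, 5.59 and 5.44 in the Nkx2-1 high samples and 7.99, 7.65 and 7.33 in the Nkx2-1 low samples. The groups were separated by a gap of 1.70 between the highest Nkx2-1 high and the lowest Nkx2-1 low sample, and the low samples were the more spread out. The difference was -2.10 ± 0.15 (SE, limma adjusted p = 6.74e-05), which ranked 8 from the most negative among all genes. Alx4, its relative, acts in the skull vault and in limb patterning. It stood at 4.65, 4.84 and 4.83 in Nkx2-1 high and at 5.83, 5.94 and 6.11 in Nkx2-1 low. The groups did not overlap, and the Nkx2-1 high samples lay near the background level. Alx4 was 2.28-fold lower (log2 difference -1.19 ± 0.10, limma adjusted p = 0.000135).

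Prrx1 and Prrx2 encode a pair of closely related factors that together shape the lower jaw and limbs. Prrx1 was at 7.47, 7.45 and 6.90 on the log2 scale in Nkx2-1 high and at 9.29, 9.18 and 9.07 in Nkx2-1 low. Replicate 3 of Nkx2-1 high was the lowest of all 6 samples, and even the highest Nkx2-1 high sample lay 1.60 under the lowest Nkx2-1 low sample. The difference was -1.90 ± 0.14 (SE, limma adjusted p = 9.22e-05). Prrx2 was at 6.30, 6.17 and 6.30 in Nkx2-1 high and at 7.28, 7.50 and 7.24 in Nkx2-1 low. The groups did not overlap, and the samples of each group lay within 0.26 of each other. Prrx2 was 2.12-fold lower (log2 difference -1.09 ± 0.09, limma adjusted p = 0.000163). Both remained clearly above background in the reporter-positive cells, with means of 7.28 for Prrx1 and 6.25 for Prrx2 in Nkx2-1 high.

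Msx1 encodes a homeodomain repressor of tooth and palate mesenchyme that responds to bone morphogenetic proteins. Its log2 expression was 6.70, 6.65 and 6.51 in Nkx2-1 high and 8.24, 8.42 and 7.99 in Nkx2-1 low. The groups were separated by 1.29, and the difference was -1.59 ± 0.11 (SE, limma adjusted p = 6.84e-05). Msx2, its relative in the skull and teeth, was at 6.64, 6.63 and 6.35 in Nkx2-1 high and at 6.54, 6.67 and 6.42 in Nkx2-1 low. The groups overlapped, with group means of 6.540 ± 0.165 in Nkx2-1 high and 6.542 ± 0.121 in Nkx2-1 low (SD, n = 3 each). The log2 difference of Msx2 was -0.0014 ± 0.104 (SE, limma adjusted p = 0.997), with a 95% interval from -0.23 to 0.23. The difference of -1.59 measured for Msx1 lies outside this interval.

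The change of Msx1 relative to Msx2 was set out sample by sample as the log2 value of Msx1 minus that of Msx2. It was 0.06, 0.02 and 0.16 in Nkx2-1 high and 1.70, 1.76 and 1.57 in Nkx2-1 low, so that the groups did not overlap and the shift between them was -1.59. An exact two-sided permutation test over the 6 samples gave p = 0.1, and groups of 3 cannot reach a smaller value, so this test cannot pass 0.05. The same measure shifted by -0.91 for Alx1 against Alx4 and by -0.82 for Prrx1 against Prrx2, each without overlap and each with an exact permutation p = 0.1 before adjustment, over 3 such comparisons in which adjustment leaves 0.1. In each pair the offset between the probes does not enter the shift, but their response to RNA amount may differ and was not measured.

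Barx1 encodes a factor of molar and jaw mesenchyme. It was at 4.90, 5.13 and 5.25 in Nkx2-1 high and at 5.66, 5.77 and 5.73 in Nkx2-1 low on the log2 scale. The groups did not overlap, with a gap of 0.41, and Barx1 was 1.54-fold lower (log2 difference -0.63 ± 0.10, limma adjusted p = 0.00552). Shox2, which acts in palate and limb mesenchyme, was at 3.14, 2.92 and 3.22 in Nkx2-1 high and at 3.74, 4.04 and 3.78 in Nkx2-1 low. It passed the test (log2 difference -0.76 ± 0.11, limma adjusted p = 0.00352) with no overlap, but all 6 values lay under the background level, so no fold is given.

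Pitx1 encodes a factor of the mandible, the oral epithelium and the hindlimb. It was at 5.91, 6.04 and 6.09 in Nkx2-1 high and at 6.04, 6.08 and 6.51 in Nkx2-1 low. The groups overlapped, and only replicate 3 of Nkx2-1 low stood above the others. The log2 difference of -0.20 ± 0.13 did not pass (limma adjusted p = 0.459), and its 95% interval ran from -0.48 to 0.08. Without Nkx2-1 low replicate 3 the difference of Pitx1 was -0.047.

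**Figure D2:**
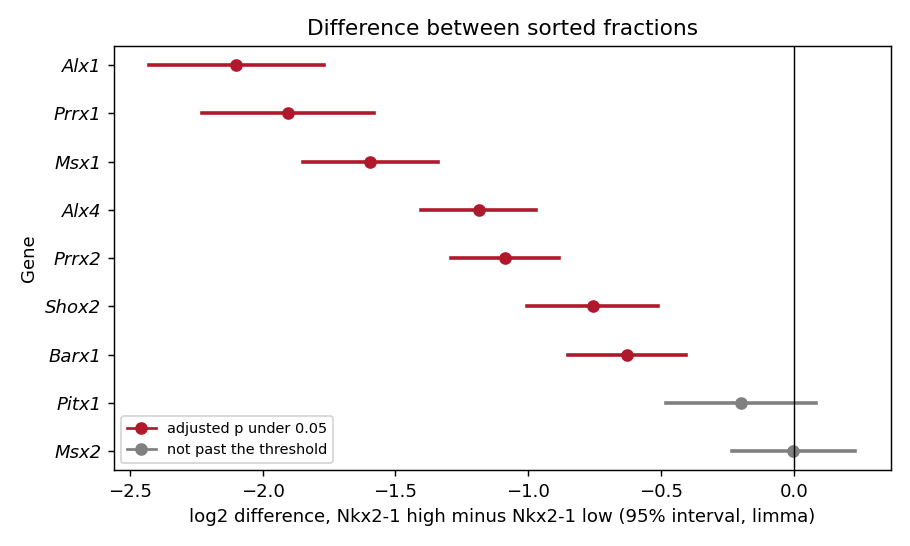
Log2 difference of each of the 9 genes between Nkx2-1 high and Nkx2-1 low (horizontal axis), with genes in order on the vertical axis, points for the estimate and bars for limma's 95% interval. The 7 genes in red passed the adjusted threshold, from -2.10 for Alx1 to -0.63 for Barx1, and the intervals of Pitx1 and Msx2 in grey include 0.

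In order of size the falls ran from Alx1, Prrx1 and Msx1 through Alx4 and Prrx2 to Barx1, with Shox2 left out of the order because neither of its group means was above background. The 95% intervals of the differences of Alx1 (-2.43 to -1.77) and Prrx1 (-2.23 to -1.58) overlapped, as did those of Prrx1 and Msx1 (-1.85 to -1.34), so these neighbours are not separated. The intervals of Msx1 and Alx4 (-1.40 to -0.97) overlapped narrowly, and those of Alx4 and Prrx2 (-1.29 to -0.88) almost entirely. Overlap of intervals is not a test of whether the differences of these genes differ. A total of 5 genes fell by 1 or more on the log2 scale, where 0.346% of all genes did so.

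Within a fraction, the 9 genes did not vary as a block. In Nkx2-1 low, Alx1 was 0.33 above its group mean in replicate 1 and 0.33 below it in replicate 3, while Pitx1 was 0.30 above its mean in replicate 3. In Nkx2-1 high, Prrx1 was 0.37 below its mean in replicate 3, and Msx2, Alx1 and Msx1 were lowest in that sample too. Across the deviations of the 6 samples from their group means, Msx1 and Msx2 correlated at Pearson r = 0.86, Prrx1 and Msx2 at 0.85, and Alx4 and Pitx1 at 0.91. Alx1 went against Alx4 (r = -0.86) and against Pitx1 (r = -0.89). Of the 36 pairs 16 were positive and 20 negative. These correlations describe 6 samples that share arrays and scaling, and no p is given. The widest range among replicates was 0.57 in Nkx2-1 high (Prrx1) and 0.66 in Nkx2-1 low (Alx1), beside log2 differences of -1.90 for Prrx1 and -2.10 for Alx1. For Barx1 the range was 0.35 in Nkx2-1 high and 0.11 in Nkx2-1 low, beside a log2 difference of -0.63.

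**Figure D3:**
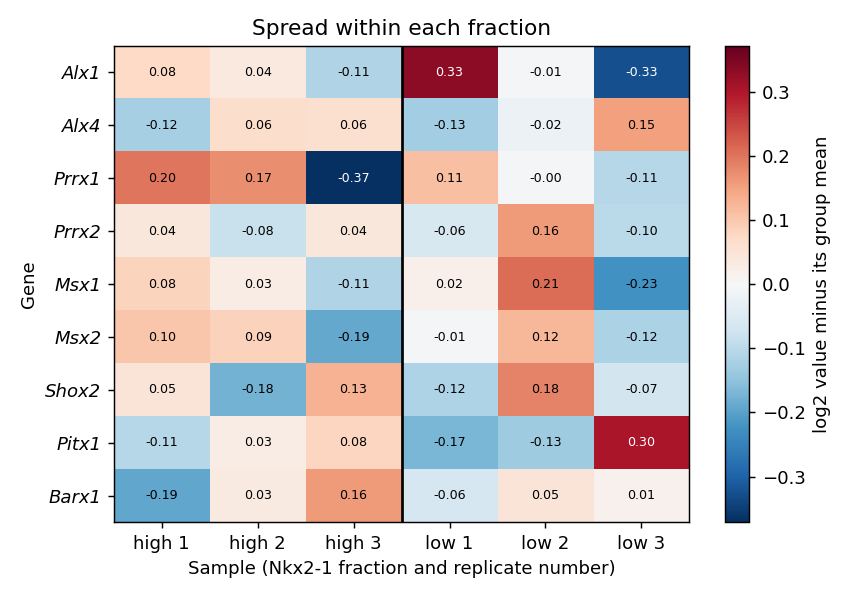
Deviation of each sample's log2 value from its own group mean (colour and printed value) for the 9 genes (vertical axis) in the 3 Nkx2-1 high samples (left) and the 3 Nkx2-1 low samples (right). Alx1 and Pitx1 take opposite colours in replicates 1 and 3 of Nkx2-1 low, and Prrx1 is lowest in replicate 3 of Nkx2-1 high.

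Among other members of these families, Msx3, Pitx3 and Barx2 were examined. None of these 3 relatives passed limma's test, and at an unadjusted p under 0.05 the count was also 0. Msx3, a dorsal neural tube gene in mouse, averaged 5.54 ± 0.12 in Nkx2-1 high and 5.50 ± 0.12 in Nkx2-1 low. Pitx3, a gene of lens and dopaminergic neurons, averaged 5.08 ± 0.14 in Nkx2-1 high and 4.96 ± 0.08 in Nkx2-1 low. Barx2 averaged 4.85 ± 0.10 in Nkx2-1 high and 4.87 ± 0.02 in Nkx2-1 low (log2, SD, n = 3 each). The log2 differences of the 3 lay between -0.02 and 0.12.

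The genes whose 6 sample values were most like those of each strongly lower homeobox gene were found by Pearson r over the 6 samples. The search covered 12868 genes above background in at least 1 group, with predicted gene models (Gm and Rik symbols) and the 9 genes left out. For Alx1 they were Postn (r = 0.999), which encodes the matrix protein periostin, the secreted Wnt modulator gene Sfrp2 (r = 0.998) and the actin-severing protein gene Gsn (r = 0.997). Sfrp2 was also lower in Nkx2-1 high, at 7.49 against 9.16 in Nkx2-1 low (log2 difference -1.67 ± 0.10, limma adjusted p = 2.85e-05). For Prrx1 they were Mab21l1 (r = 0.999), Ythdc2 (r = 0.998) and Zranb1 (r = 0.997). For Msx1 they were Luc7l2 (r = 0.999), Psmd14 (r = 0.997) and the activin subunit gene Inhba (r = 0.997). Alx4 was closest to Ctps, Nxt1 and Bmpr1b, at r from 0.995 to 0.996, and Prrx2 to Fbxl5, Gpr161 and Sema3f, also at r from 0.995 to 0.996. With 6 samples in 2 groups, 322 of the 12868 genes had r over 0.95 with Alx1 and 375 with Prrx1. Likeness of pattern does not follow size, as Luc7l2 differed by only -0.14 ± 0.07 and did not pass (limma adjusted p = 0.314).

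The wider set of facial and arch mesenchyme regulators, a list written with earlier results known and without the 9 genes, held 41 genes, of which 38 were measured. Of these, 20 fell and 0 rose, with 2 higher at an unadjusted p under 0.05, and the median log2 difference was -0.40. Over all genes 3.09% were lower and 2.90% higher, and the counts of the lists below stand beside the same shares. Among the 20, Tbx22 was not above background in either group, and Tfap2b, Tbx15, Osr1 and Tbx18 were above it in Nkx2-1 low alone. Mab21l1, a gene of eye and facial development, averaged 5.20 ± 0.47 in Nkx2-1 high and 7.93 ± 0.22 in Nkx2-1 low. Lhx8 averaged 5.32 ± 0.03 in Nkx2-1 high and 7.86 ± 0.20 in Nkx2-1 low, and Lhx6 averaged 5.66 ± 0.13 in Nkx2-1 high and 7.18 ± 0.28 in Nkx2-1 low. Both are LIM-homeodomain genes of first-arch mesenchyme and of the ventral forebrain. The AP-2 gene Tfap2c averaged 5.53 ± 0.37 in Nkx2-1 high and 7.63 ± 0.36 in Nkx2-1 low (log2, SD, n = 3 each). All 4 fell in limma, with adjusted p of at most 0.000416. Twist1, a mesenchyme gene of the head, was 1.93-fold lower, whereas its relative Twist2 differed by 0.10 ± 0.08 (SE) and Sox9, of cartilage progenitors, by -0.03 ± 0.07. Foxc1 (0.32 ± 0.09) and Eya1 (0.32 ± 0.10) were the 2 higher at the unadjusted threshold and did not pass after adjustment. The number that rose was 1 without Nkx2-1 high replicate 3 and 2 with array weights. Without Nkx2-1 low replicate 2 the number that fell was 13, and 10 of the 20 kept the call whichever single sample was left out.

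**Figure D4:**
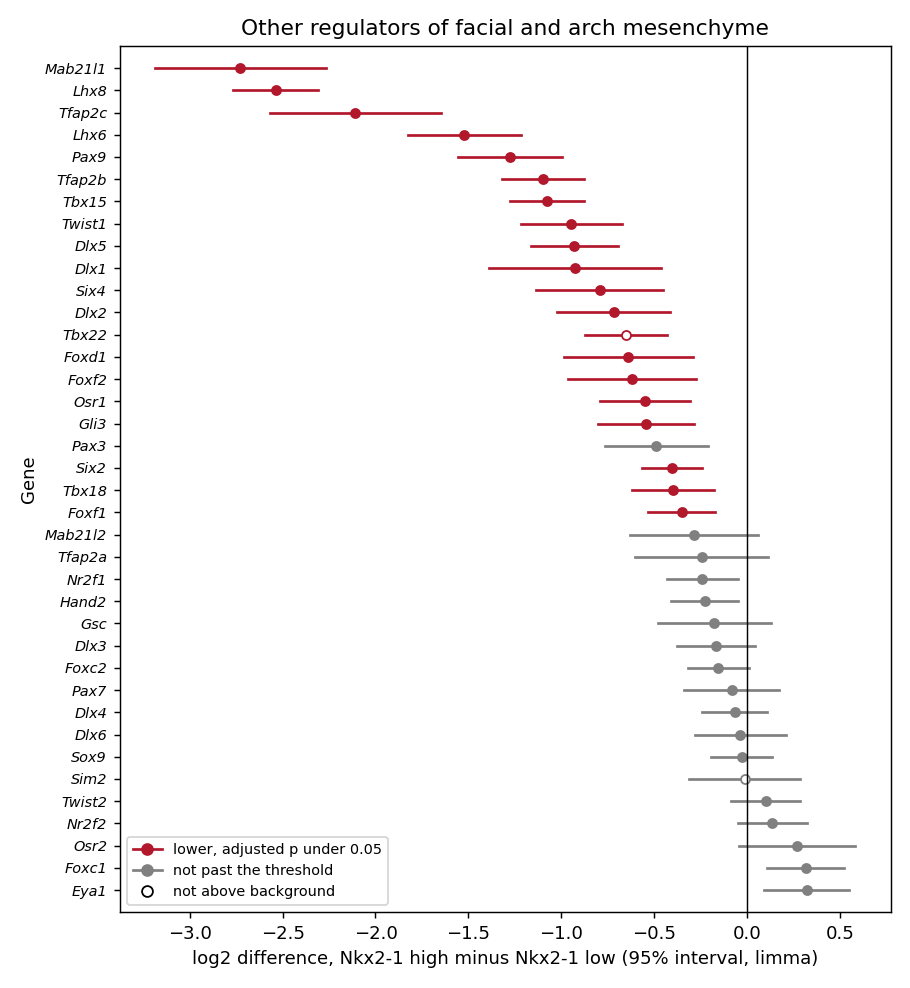
Log2 difference between Nkx2-1 high and Nkx2-1 low (horizontal axis) for 38 other regulators of facial and arch mesenchyme (vertical axis), with points for the estimate and bars for limma's 95% interval. The 20 genes in red passed the adjusted threshold, all with negative differences, and open points mark genes not above background in either group.

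Signals and receptors that act on this mesenchyme moved both ways. Of 31 measured genes 7 fell and 3 rose, with a median log2 difference of -0.04. The platelet-derived growth factor receptor gene Pdgfra, a marker of mesenchyme, averaged 6.53 ± 0.36 in Nkx2-1 high and 8.53 ± 0.23 in Nkx2-1 low. Bmp4, a ligand that induces Msx1 in tooth mesenchyme, was higher and averaged 8.18 ± 0.10 in Nkx2-1 high and 7.21 ± 0.09 in Nkx2-1 low (limma adjusted p = 0.000227). Bmp7 was 1.74-fold lower (-0.80 ± 0.15, SE), and the receptor gene Bmpr1b, whose mean exceeded the background level in Nkx2-1 low alone, was at least 1.06-fold lower (limma adjusted p = 0.000543). Among common targets of this pathway, Id2 fell (-0.46 ± 0.10, limma adjusted p = 0.0223) and Id4 rose (0.49 ± 0.10, limma adjusted p = 0.0160). Each of these calls was lost in 4 of 6 leave-one-out fits, with adjusted p up to 0.0868 for Id2 and 0.0646 for Id4. Id1 (0.32 ± 0.09), Id3 (0.31 ± 0.11), Smad7 (0.30 ± 0.09) and Smad6 (0.07 ± 0.08) did not pass. At an unadjusted limma p under 0.05, Id1, Id3 and Smad7 were higher. Over the 31 genes, 9 were lower and 8 higher at that threshold. The number that fell was 4 without Nkx2-1 high replicate 2.

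Matrix genes were split. Of 28 measured mesenchyme matrix and skeletal genes 7 fell and 1 rose, with a median log2 difference of -0.05. The tenascin gene Tnn averaged 4.88 ± 0.20 in Nkx2-1 high and 7.53 ± 0.06 in Nkx2-1 low, and Postn averaged 7.56 ± 0.15 in Nkx2-1 high and 9.90 ± 0.37 in Nkx2-1 low (log2, SD, n = 3 each). Col1a2 was 2.82-fold and Col6a3 2.56-fold lower. The gene that rose was Col5a2 (0.44 ± 0.09, limma adjusted p = 0.0182), whose call was lost in 5 of 6 leave-one-out fits (adjusted p up to 0.0637). The cartilage matrix genes Acan and Matn1 and the bone gene Ibsp were not above background in either group, and Col2a1 differed by -0.25 ± 0.13 (limma adjusted p = 0.356).

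Of 10 measured neural crest markers 3 fell and 0 rose. Crabp1, whose product binds retinoic acid in migrating crest, was 3.79-fold lower (log2 difference -1.92 ± 0.12). Snai2 and Snai1, genes of the epithelial-to-mesenchymal switch, passed (-0.65 ± 0.15 and -0.39 ± 0.09) but the calls of both were lost in 5 of 6 leave-one-out fits, with adjusted p up to 0.122 for Snai2 and 0.145 for Snai1. Without Nkx2-1 high replicate 2, Nkx2-1 low replicate 1 or Nkx2-1 low replicate 2 the count was 1. Sox10 (0.16 ± 0.08) and Foxd3 (0.03 ± 0.10), which mark early crest, did not pass.

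Genes of axial and limb position were examined because first-arch mesenchyme lacks Hox expression, while several of the 9 homeobox genes also act in limbs. Of 26 measured genes 7 fell and 0 rose, and for 15 of the 26 both group means lay at or under the background level. Hoxd10 averaged 4.78 ± 0.25 in Nkx2-1 high and 5.48 ± 0.28 in Nkx2-1 low, and Hoxd11 averaged 4.46 ± 0.05 in Nkx2-1 high and 5.06 ± 0.27 in Nkx2-1 low (log2, SD, n = 3 each). The call was lost in 4 of 6 leave-one-out fits for Hoxd10 and in 5 of 6 for Hoxd11, with adjusted p up to 0.0952 and 0.0771. Hoxc10 and Hoxa5 also fell, at levels not above background. The call of Hoxc10 was lost in 0 of 6 such fits (adjusted p up to 0.0333) and that of Hoxa5 in 5 of 6 (adjusted p up to 0.108). The other genes called were Hoxa9, Hoxd9 and Hoxa10, with calls lost in 5, 4 and 3 of 6 such fits. Hoxa10, too, was not above background in either group (means 3.41 in Nkx2-1 high and 3.84 in Nkx2-1 low). With only genes above background tested, 4 genes fell. The count that fell was 1 without Nkx2-1 high replicate 1 or without Nkx2-1 low replicate 2, 2 when Nkx2-1 low replicate 1 was left out, and 4 when Nkx2-1 high replicate 2 was. The limb genes Tbx4 (4.07 in Nkx2-1 high, 4.04 in Nkx2-1 low) and Tbx5 (2.998 in Nkx2-1 high, 2.860 in Nkx2-1 low) were not above background.

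**Figure D5:**
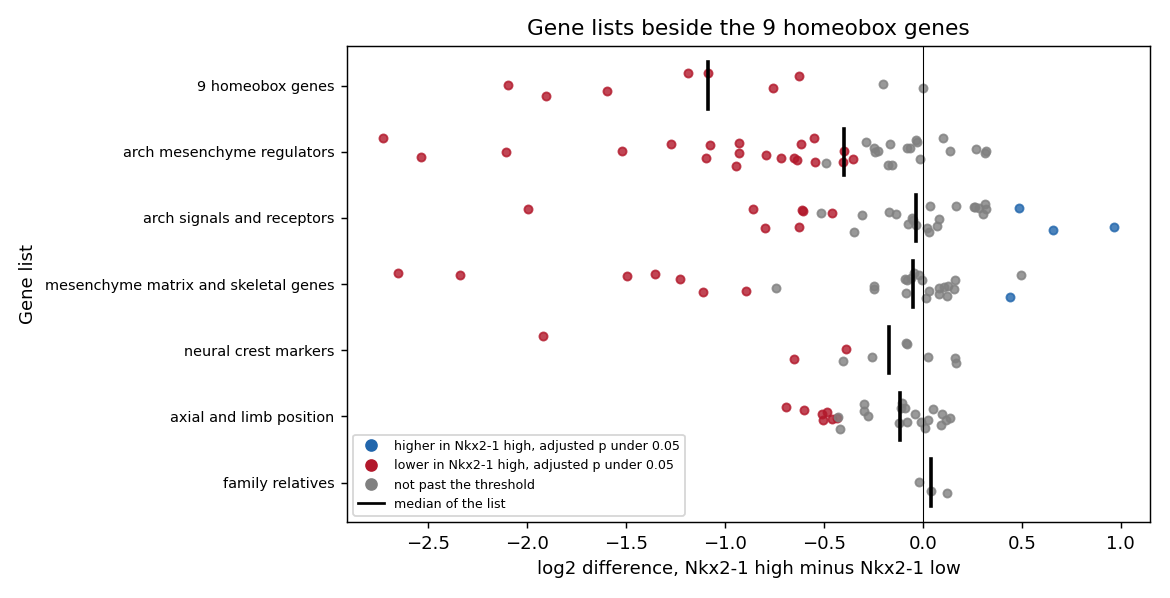
Log2 difference between Nkx2-1 high and Nkx2-1 low (horizontal axis) for the 9 homeobox genes and 6 related lists (vertical axis), with a point for each gene, coloured by its limma call, and a black bar for the median. The bar of the 9 genes lies at -1.09 and that of the arch regulators at -0.40, while the bars of the other lists lie between -0.17 and 0.04.

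Markers of mesenchyme and of other cell types were read beside the 9 genes. In bulk fractions they cannot show which cells express the 9 genes, so they do not check the label of the set. All 6 mesenchyme markers (Pdgfra, Pdgfrb, Col1a1, Col1a2, Twist1 and Postn) were above background in both groups, and 5 of the 6 fell, while the means of Pdgfrb were 9.68 in Nkx2-1 high and 9.64 in Nkx2-1 low. Their summed linear signal ran from 1888 to 2522 in Nkx2-1 high and from 4187 to 5051 in Nkx2-1 low. All 6 also stand in the lists above, where other mesenchyme genes did not fall, so the sum describes these 6 genes only. Fn1 (0.49 ± 0.13, SE, limma adjusted p = 0.0643), Vim (0.16 ± 0.08) and Dcn (0.16 ± 0.14) did not pass. Of the 28 measured matrix and skeletal genes 7 fell and 1 rose. Most neuron markers moved the same way as the 9 genes. Of 10, 6 fell and 0 rose, and their summed linear signal ran from 336 to 448 in Nkx2-1 high and from 632 to 655 in Nkx2-1 low. Among the 6, Dcx, Stmn2 and Elavl4 were above background in Nkx2-1 low alone. Syt1, not among the 6, differed by 0.03 ± 0.11 (SE). Of 10 epithelial markers Epcam fell (mean 4.31 in Nkx2-1 high, 5.13 in Nkx2-1 low), and the summed signal of 276 to 330 in Nkx2-1 high overlapped that of 293 to 343 in Nkx2-1 low. Of 8 endothelial markers Tek rose, from a mean of 4.19 in Nkx2-1 low, not above background, to 5.09 in Nkx2-1 high. At an unadjusted limma p under 0.05, 3 of the 8 were higher, Tek among them, and 1 lower. The summed signal of 242 to 314 in Nkx2-1 high overlapped that of 219 to 246 in Nkx2-1 low. Of 5 blood markers 4 were not above background, Ptprc among them, and 0 of the 5 and 0 of 9 muscle and heart markers passed limma's test, with 1 and 2 lower at an unadjusted p under 0.05. The part of any cell type in the falls of the 9 genes was not tested.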

How the data were processed

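The authors deposited 1 table of log2 expression values for 6 arrays. RMA, which corrects background, equalises arrays and summarises probes, is named in the submitters' processing notes. No source states the scale, so log2 is inferred from RMA and the range. Per the labels' protocols, WT-Ovation Pico amplification preceded labelling, which can shift relative signals. Of 29011 rows, 21789 carried a single gene symbol in the platform annotation, and the highest-mean row per gene gave 19938 genes. All genes were compared between groups with limma 3.58.1 in R 4.3.3 (lmFit, eBayes, group as the only term), checked on simulated data. Benjamini-Hochberg adjustment ran over all genes at 0.05. Folds compare group means, or a mean with the background level ("at least"). Exact permutation tests used scipy 1.17.1, and figures matplotlib 3.10.9. Members and lists were chosen with earlier results of these data known. The rule named the 9 genes, measured relatives, Nkx2-1, the 4 largest called genes per list and the 3 genes most like each member that differed by 1 or more. Other genes named were chosen after their values were seen. Alternatives are in the closing section.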

Additional observations from a re-analysis of the deposited data

How the results depend on the processing

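The count of homeobox genes that fell was 7 in every fit that left out 1 sample, with replicates 1 and 2 only, under both other array scalings, with array weights, with a trended robust fit and at a threshold of 0.01. It was 6 with only genes above background, where Shox2 was not tested, and 0 in the test per gene without eBayes. None rose under any of the 16 alternatives. The count over all genes was 507 at 0.01, 89 without eBayes, and from 624 to 1086 in the fits without 1 sample. The log2 difference of Alx1 ran from -2.26 to -1.93 over 15 alternatives and that of Barx1 from -0.71 to -0.53. Averaging the rows of a gene changed none of the 9, which have 1 row each. With the replicate number as a block 7 of the 9 fell and 1470 of all genes were called. Deviations of samples with the same number correlated at 0.18, -0.0041 and 0.28. Replicates 1 and 3 of Nkx2-1 high correlated best with their own number in Nkx2-1 low, while replicate 2 correlated best with replicate 1 of Nkx2-1 low (0.15). These values do not settle whether the numbers pair the samples, and the main fit left the samples unpaired.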
